A study of Mus musculus with 10 samples.

Results

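Pan-macrophage and C1q genes were followed in epididymal white adipose tissue, the visceral fat pad beside the epididymis. The set holds 10 genes, picked by symbol out of the 23930 genes in the count table: Csf1r, Adgre1, Cd68, Aif1, Itgam, Cd14, Lyz2, C1qa, C1qb and C1qc. The tissue came from male C57BL/6 mice, 5 of them Srgn-/- and 5 Srgn+/+. Srgn encodes serglycin, the proteoglycan that packs secretory granules of blood-derived cells. All 10 mice, the Srgn+/+ controls included, were 18 weeks old and had been fed a high sucrose, high fat diet over 8 weeks, so lean fat is not represented. Each library is RNA of 1 mouse, and the libraries are called Srgn-/- 1 to 5 and Srgn+/+ 1 to 5 in the order of their records, which pairs no mouse with another. The comparison asks how macrophage genes stand in fat that lacks serglycin.

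Macrophages settle in fat as resident cells and are also replenished from blood monocytes, and in obese visceral fat they gather around dying fat cells. Their survival depends on signals through the receptor encoded by Csf1r, and their gene programme on transcription factors that include PU.1. C1q is the recognition part of the first component of complement. It is built of chains encoded by C1qa, C1qb and C1qc, is made largely by macrophages, and binds immune complexes and dying cells. Lyz2, Cd14 and Itgam are shared with monocytes and neutrophils, so they report on myeloid cells more widely than Adgre1 or C1q do.

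The libraries held 7824764 to 10757779 reads, 1 amplicon (a short amplified target) being read per gene. Levels below are CPM, the read count as a share of the library's reads, with library sizes adjusted by edgeR's TMM method; amplicons differ in efficiency, so levels are compared between libraries and not between genes. Srgn had 3, 1, 0, 0 and 12 reads in Srgn-/- 1 to 5, against 776, 1047, 1301, 851 and 1005 reads in Srgn+/+ 1 to 5. The 10 adipocyte markers together reached 30986 to 37273 CPM in Srgn-/- and 31526 to 38622 CPM in Srgn+/+, all 10 being well detected. Epididymis and testis markers summed to 6598 CPM in Srgn-/- 3, 1132 CPM in Srgn-/- 5 and 1139.6 CPM in Srgn+/+ 4, and to no more than 165 CPM in each of the other libraries. In bulk tissue, fewer macrophages and less of a transcript per macrophage cannot be told apart.

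RefSeq promoter sequences of assembly GRCm38.p6 were searched for 6 of the 10 genes, while the reads themselves were placed on mm9. For the 10 genes, any window on a single chromosome was skipped, and the windows counted over all genes below were not cut in this way. No window was searched for Csf1r, Adgre1, Cd14 and C1qa, so whether theirs hold the motifs is not known here. The 6 genes and that background were thus not selected alike. The shares below therefore cannot show whether the motifs are more frequent in these genes, and that was not tested. In each of those 6, the 250 bases before the start hold GAGGAA or GGAAGT on either strand, both parts of the purine-rich sequence that PU.1 prefers; the motifs overlap where GAGGAA is followed by GT. Among all 32851 promoter windows of the same length, 23.3% hold GAGGAA, 19.7% hold GGAAGT and 36.7% hold at least 1 of them. A match is a description of the letters and not a site of binding. Shown are the pair of genes that varied most alike, Cd68 and Itgam, the neighbouring C1qb and C1qc, and Aif1, which varied least like the others; capitals mark the motif or its reverse complement.
Cd68, chr11:69666171-69666420, minus strand: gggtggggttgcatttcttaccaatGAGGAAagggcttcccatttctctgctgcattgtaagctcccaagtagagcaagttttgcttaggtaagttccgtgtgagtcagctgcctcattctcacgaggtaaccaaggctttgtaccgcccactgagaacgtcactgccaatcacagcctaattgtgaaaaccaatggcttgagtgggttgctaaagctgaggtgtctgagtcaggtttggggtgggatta
Itgam, chr7:128062390-128062639, plus strand: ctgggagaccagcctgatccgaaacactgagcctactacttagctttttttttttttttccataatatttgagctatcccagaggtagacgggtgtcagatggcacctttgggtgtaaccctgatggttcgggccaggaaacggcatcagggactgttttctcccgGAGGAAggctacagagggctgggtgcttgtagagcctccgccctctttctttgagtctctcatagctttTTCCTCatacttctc
C1qb, chr4:136886201-136886450, minus strand: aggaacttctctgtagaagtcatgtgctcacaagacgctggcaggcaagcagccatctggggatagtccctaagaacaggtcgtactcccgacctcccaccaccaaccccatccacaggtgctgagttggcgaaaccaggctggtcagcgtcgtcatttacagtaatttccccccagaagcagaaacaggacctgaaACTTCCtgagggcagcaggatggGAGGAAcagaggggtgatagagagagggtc
C1qc, chr4:136892915-136893164, minus strand: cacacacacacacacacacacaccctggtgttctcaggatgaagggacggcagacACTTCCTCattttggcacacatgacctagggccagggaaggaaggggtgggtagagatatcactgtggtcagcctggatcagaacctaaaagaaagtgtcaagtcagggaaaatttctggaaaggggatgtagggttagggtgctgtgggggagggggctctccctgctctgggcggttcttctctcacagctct
Aif1, chr17:35176053-35176302, minus strand: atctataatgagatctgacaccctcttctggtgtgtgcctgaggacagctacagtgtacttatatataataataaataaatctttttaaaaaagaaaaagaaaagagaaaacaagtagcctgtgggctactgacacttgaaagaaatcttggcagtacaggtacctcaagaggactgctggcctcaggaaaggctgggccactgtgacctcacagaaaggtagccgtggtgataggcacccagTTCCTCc
In C1qc both motifs match on the opposite strand and overlap, beginning 195 and 193 bases before the start. In C1qb they lie apart, on opposite strands, at 53 and 30 bases before the start. In Aif1 the single match begins 7 bases before the start, and in Cd68 it begins 225 bases before it.

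Of the 10 genes, 9 had enough reads to be tested, and all 9 had a lower mean in Srgn-/- fat than in Srgn+/+ fat, without any passing the test. Their log2 fold changes ran from -0.70 for Cd68 to -0.27 for Csf1r, with a median of -0.62, or 65.2% of the Srgn+/+ level; the median over all 12719 genes tested was -0.0014. Cd68 spanned 8.81-fold among the Srgn+/+ mice and 3.74-fold among the Srgn-/- mice. Srgn+/+ 5 was the highest library for 8 of the 9 genes, and Srgn+/+ 1 was the lowest for 6 of the 9.

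**Figure D1:**
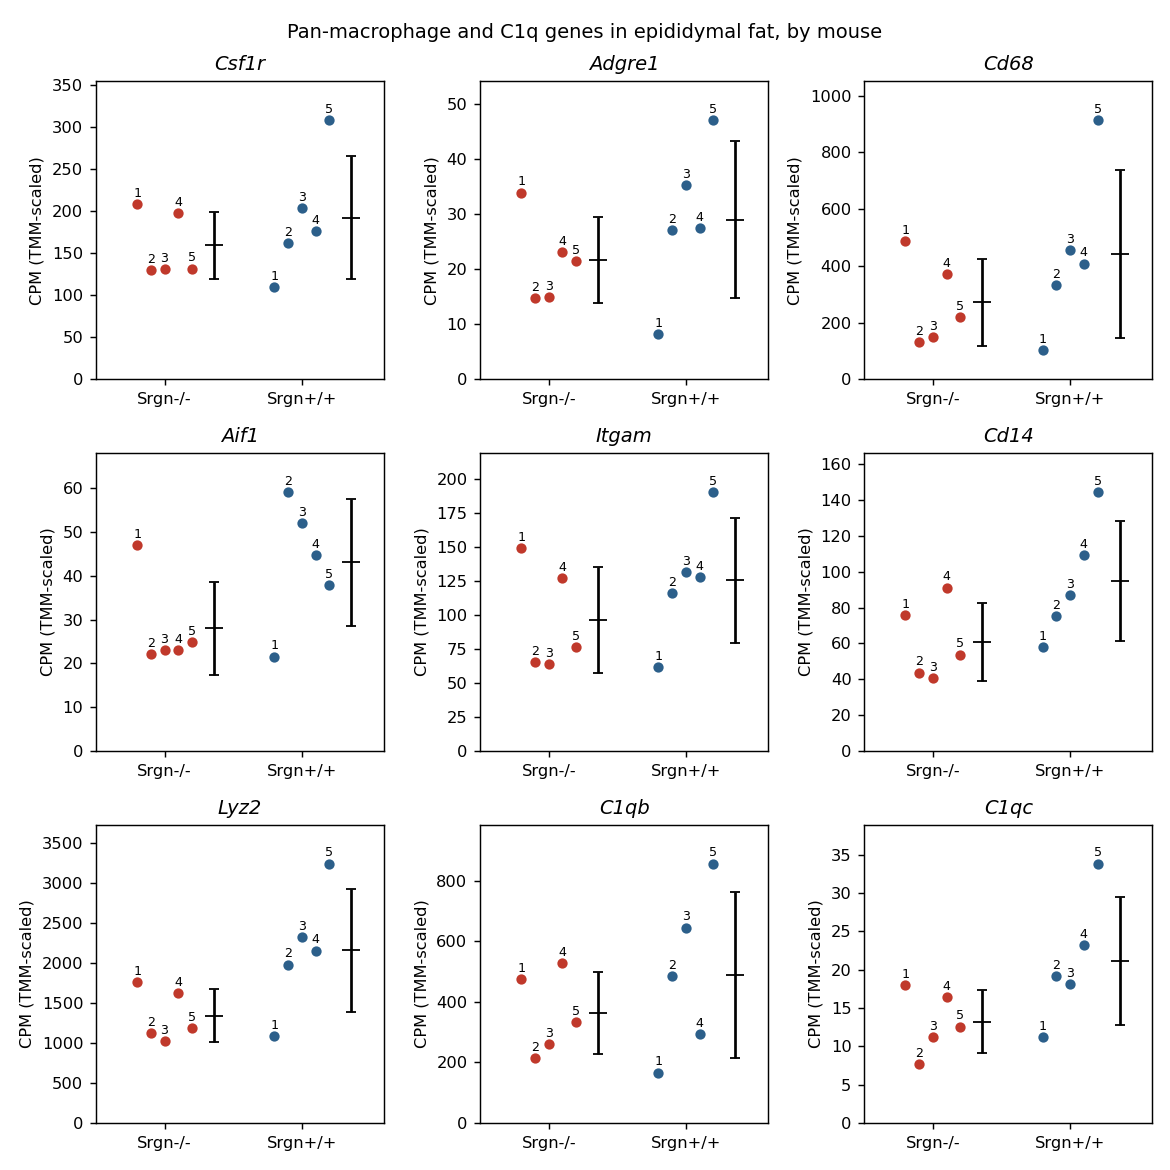
Level of each tested gene (CPM, TMM-scaled, linear axis from 0) in the 5 Srgn-/- mice (red, left) and the 5 Srgn+/+ mice (blue, right); numbers name the mouse, and the black bar is the mean with its SD. Srgn+/+ 5 tops every panel but Aif1, where Srgn+/+ 2 does, and the genotypes overlap in all 9 panels.

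Csf1r encodes the receptor for the growth factors CSF1 and IL-34, on which most macrophages depend. It had 208, 129.6, 131, 198 and 132 CPM in Srgn-/- 1 to 5, against 110.2, 162, 204, 177 and 309 CPM in Srgn+/+ 1 to 5. The lowest and the highest library were both Srgn+/+, and the Srgn-/- libraries lay between them. The means were 159.8 ± 39.7 CPM in Srgn-/- and 192 ± 73.5 CPM in Srgn+/+ (SD, n = 5 each), which is -0.27 as a log2 fold change (SE 0.252, edgeR adjusted p = 0.680). Its 95% interval, -0.82 to 0.29, leaves room for a level of 56.5% to 122% of that in Srgn+/+.

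Adgre1 encodes F4/80, the adhesion-type receptor by which mouse macrophages are usually recognised. Its level was 33.9, 14.7, 14.9, 23.1 and 21.5 CPM in Srgn-/- 1 to 5, against 8.18, 27.0, 35.2, 27.5 and 47.1 CPM in Srgn+/+ 1 to 5. Apart from Srgn+/+ 1, which was the lowest of all 10, the Srgn+/+ libraries exceeded 4 of the 5 Srgn-/- libraries. With means of 21.6 ± 7.84 CPM in Srgn-/- and 29.0 ± 14.2 CPM in Srgn+/+, the difference was -0.42 on the log2 scale (SE 0.391, edgeR adjusted p = 0.680).

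Cd68 encodes a heavily glycosylated protein of the late endosomes and lysosomes of macrophages. Srgn-/- 1 to 5 had 488, 130.4, 149, 372 and 219 CPM, and Srgn+/+ 1 to 5 had 104, 332, 456, 408 and 914 CPM. It had the widest range over the 10 libraries among the 9 genes tested, and the Srgn-/- values all lay inside the Srgn+/+ range. The means were 272 ± 154 CPM in Srgn-/- and 443 ± 296 CPM in Srgn+/+, with a log2 fold change of -0.70 and the largest SE of the 9, 0.530 (edgeR adjusted p = 0.599; 95% interval -1.88 to 0.47).

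Aif1 encodes IBA1, a calcium-binding protein that bundles actin in macrophages and microglia. It stood at 47.0, 22.1, 23.1, 23.0 and 24.9 CPM in Srgn-/- 1 to 5, against 21.6, 59.2, 52.0, 44.7 and 37.8 CPM in Srgn+/+ 1 to 5. Of the Srgn-/- libraries, 4 lay within 22.1 to 24.9 CPM, close to Srgn+/+ 1 and below the other Srgn+/+ libraries, while Srgn-/- 1 was among the high ones. The log2 fold change was -0.62 (SE 0.285; edgeR unadjusted p = 0.0530, adjusted p = 0.393), with means of 28.0 ± 10.6 CPM in Srgn-/- and 43.0 ± 14.4 CPM in Srgn+/+. Without Srgn-/- 1 it was -0.89.

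Itgam encodes CD11b, the integrin chain that forms complement receptor 3 with the chain encoded by Itgb2. Its values were 149, 65.5, 63.9, 128 and 76.5 CPM in Srgn-/- 1 to 5, against 62.0, 116, 132, 128 and 191 CPM in Srgn+/+ 1 to 5. Srgn-/- 1 and 4 lay among the Srgn+/+ libraries, and the other Srgn-/- libraries lay just above Srgn+/+ 1. The log2 fold change was -0.38 (SE 0.317, edgeR adjusted p = 0.637), from means of 96.6 ± 39.3 CPM in Srgn-/- and 126 ± 46.0 CPM in Srgn+/+.

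Cd14 encodes the coreceptor that hands bacterial endotoxin to TLR4 and its partner MD-2. There were 75.9, 43.7, 40.6, 91.1 and 53.8 CPM in Srgn-/- 1 to 5, against 57.8, 75.01, 86.8, 109 and 145 CPM in Srgn+/+ 1 to 5. In Cd14, 3 of the 5 Srgn-/- libraries lay below every Srgn+/+ library, and the other two lay within the Srgn+/+ range. The means were 61.0 ± 21.8 CPM in Srgn-/- and 94.7 ± 33.5 CPM in Srgn+/+, giving a log2 fold change of -0.63 (SE 0.282; edgeR unadjusted p = 0.0472, adjusted p = 0.385).

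Lyz2 encodes the lysozyme of macrophages, monocytes and neutrophils. It measured 1759.9, 1122, 1019, 1621 and 1184 CPM in Srgn-/- 1 to 5, against 1090.5, 1979, 2327, 2156 and 3244 CPM in Srgn+/+ 1 to 5. All 5 Srgn-/- libraries lay below the 4 higher Srgn+/+ libraries, and Srgn+/+ 1 lay among the Srgn-/- libraries. Lyz2 had the smallest p of the 9 genes, with a log2 fold change of -0.69 (SE 0.255; edgeR unadjusted p = 0.0201, adjusted p = 0.313) and means of 1341 ± 328 CPM in Srgn-/- and 2159 ± 771 CPM in Srgn+/+. Its near-identical neighbour Lyz1, a lysozyme best known from Paneth cells of the gut, had 39.0, 80.5, 41.2, 48.4 and 51.0 CPM in Srgn-/- 1 to 5, against 101, 60.6, 56.9, 68.5 and 50.03 CPM in Srgn+/+ 1 to 5. Lyz1 was thus highest in the Srgn+/+ library where Lyz2 was lowest. How reads of the pair were divided is not given in the sources used here, so both values carry that uncertainty.

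The C1q genes lie side by side on chromosome 4 in the order C1qb, C1qc and C1qa. C1qb had 476, 214, 261, 527 and 332 CPM in Srgn-/- 1 to 5, against 166, 484, 645, 292 and 856 CPM in Srgn+/+ 1 to 5. Srgn+/+ 1 lay below every Srgn-/- library, Srgn+/+ 2 and 4 lay among them, and Srgn+/+ 3 and 5 exceeded all of them. Its means were 362 ± 135 CPM in Srgn-/- and 489 ± 275 CPM in Srgn+/+ (log2 -0.43, SE 0.416, edgeR adjusted p = 0.687).

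C1qc had 17.9, 7.70, 11.2, 16.5 and 12.6 CPM in Srgn-/- 1 to 5, against 11.2, 19.1, 18.1, 23.2 and 33.8 CPM in Srgn+/+ 1 to 5. All 5 Srgn-/- libraries lay below the 4 higher Srgn+/+ libraries, as in Lyz2, and Srgn+/+ 1 lay among the Srgn-/- libraries. The means were 13.2 ± 4.12 CPM in Srgn-/- and 21.1 ± 8.35 CPM in Srgn+/+ (log2 -0.67, SE 0.291; edgeR unadjusted p = 0.0402, adjusted p = 0.372). The ratio of C1qb to C1qc was 23.3 to 32.0 in the Srgn-/- libraries and 12.6 to 35.7 in the Srgn+/+ libraries, the lowest being 12.6 in Srgn+/+ 4 and 14.9 in Srgn+/+ 1.

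C1qa was hardly read at all, although C1qb had 38305 reads over the 10 libraries. The C1qa amplicon had 1, 0, 0, 1 and 0 reads in Srgn-/- 1 to 5, against 2, 2, 4, 1 and 2 reads in Srgn+/+ 1 to 5. A library in which 0 reads were seen allows a level of up to 0.328 to 0.357 CPM, the level that 3 reads would give, by counting error alone. With 13 reads in all, C1qa was removed by the filter on low counts, and no genotype difference is read from it. It enters the correlations and the C1q mean below only where that is stated.

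Over the whole table, 0.00786% of genes (1 of 12719, Srgn itself) passed as lower in Srgn-/- and 0% as higher by the edgeR quasi-likelihood test at an adjusted p under 0.05, and 0 of the 9 macrophage genes were among them. At an unadjusted p under 0.05, Lyz2, C1qc and Cd14 were lower, 3 of 9, where 6.06% of all genes were lower and 6.77% higher at that level. The DESeq2 Wald test passed 0 of the 9 (0.849% of all genes passed as lower and 0.928% as higher), with 4 at an unadjusted p under 0.05 against 6.79% of all genes. Limma-voom passed 0 of the 9 (0.0629% of all genes as lower and 0.0157% as higher), with 6 at an unadjusted p under 0.05 against 10.6% of all genes. The smallest adjusted p of the 9 was 0.313 in edgeR, 0.129 in DESeq2 and 0.0888 in limma-voom. All 9 had a log2 fold change below 0, as did 50.3% of all genes, and 5 of the 9 lay at or below -0.5, as did 4.54% of all genes. The genotypes did not overlap for 0 of the 9, against 1.38% of all genes lower and 1.39% higher without overlap. Because these genes vary together from mouse to mouse, their shared direction is not 9 separate observations.

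Srgn+/+ 5 bore much of the difference, more in some of the genes than in others. Without it the median log2 fold change of the 9 genes was -0.26. That of Csf1r was -0.03, C1qb -0.13, Adgre1 -0.17, Itgam -0.18 and Cd68 -0.26. Lyz2, C1qc and Cd14 kept -0.49, -0.44 and -0.43, where all libraries gave -0.69, -0.67 and -0.63. In edgeR 0 of the 9 then had an unadjusted p under 0.05, against 1543 of 12960 genes. All 10 libraries gave 3 of 9 and 1632 of 12719 genes at that level. Aif1, which was not high in that library, had -0.66 without it. Srgn+/+ 5 also had the fewest reads of the 10 libraries, 7824764, and its adipocyte marker sum of 31526 CPM was the lowest of the Srgn+/+ libraries; the part of either in these values was not tested. Without the 3 libraries richest in epididymis RNA the median was -0.40. In that smaller fit 0 of the 9 had an unadjusted edgeR p under 0.05, and only 540 of 12947 genes did. Other omissions moved it the other way. Without Srgn+/+ 1 the median was -0.77, and 5 of the 9 had an unadjusted edgeR p under 0.05, as did 2254 of 12813 genes. Without Srgn-/- 1 it was -0.72, with 4 of the 9 and 2014 of 12900 genes at that level. In both, 0 of the 9 passed.

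**Figure D2:**
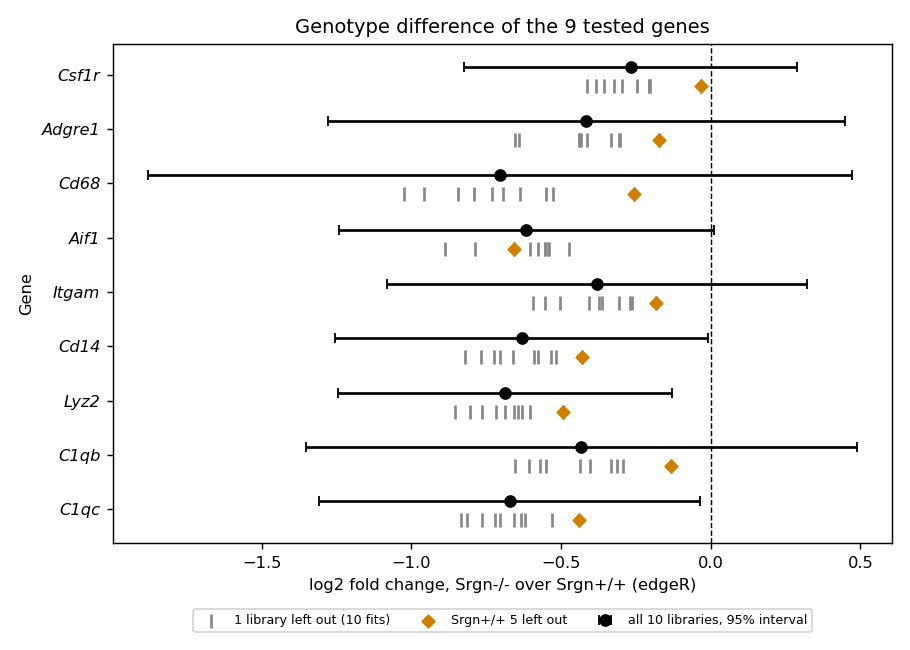
Log2 fold change of each tested gene, Srgn-/- over Srgn+/+, by edgeR: black points with 95% intervals use all 10 libraries, grey ticks leave out 1 library at a time, and orange diamonds leave out Srgn+/+ 5. All 9 points lie below 0, the intervals of Lyz2, C1qc and Cd14 end below 0 before adjustment, and without Srgn+/+ 5 Csf1r is at -0.03.

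The 9 genes kept largely the same order of libraries. The averages over genes and over libraries given here were taken on the log2 scale and turned back. Averaged over the 9 genes, Srgn+/+ 5 stood at 1.98 times the mean of all libraries, Srgn+/+ 3 at 1.39 times, and Srgn-/- 1 at 1.29 times. Srgn+/+ 4 stood at 1.23 times, Srgn+/+ 2 at 1.20 times and Srgn-/- 4 at 1.10 times. The low end held Srgn-/- 5 at 0.788 times, Srgn-/- 3 at 0.645 times, Srgn-/- 2 at 0.606 times and Srgn+/+ 1 at 0.561 times. Mice of both genotypes were thus found at both ends, with 2 Srgn-/- and 4 Srgn+/+ mice above the mean. In Srgn-/- 1, Srgn+/+ 3 and Srgn+/+ 5 all 9 genes exceeded their own mean on the log2 scale, and in Srgn-/- 2, 3 and 5 and Srgn+/+ 1 none did.

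**Figure D3:**
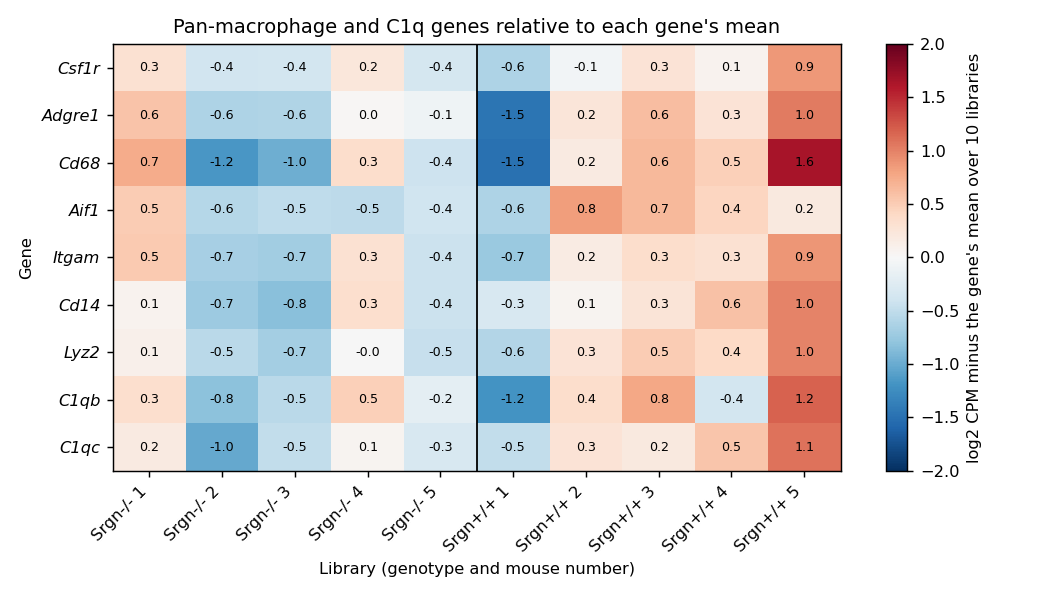
Log2 CPM of each tested gene (rows) in each library (columns; Srgn-/- left, Srgn+/+ right) minus the gene's mean over the 10 libraries. Columns are mostly of 1 colour, red in Srgn+/+ 5 and blue in Srgn+/+ 1, with exceptions such as C1qb in Srgn+/+ 4 and Aif1 in Srgn-/- 4.

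Correlations between the genes over the 10 mice were computed for all 45 pairs, C1qa included, and adjusted over the 45. All 36 pairs of tested genes were positively correlated, with Pearson r from 0.559 to 0.983 and a median of 0.897, and 33 passed (permutation test with 100000 resamples, two-sided, adjusted p under 0.05). The share of passing pairs among other genes was not computed, here or for the counts below. Against the mean of C1qb and C1qc, Cd68 at r = 0.972 ranked 19 and Adgre1 at r = 0.922 ranked 270 of 12719 genes. Genes outside the set thus correlated as closely. Cd68 and Itgam were the closest pair, with r = 0.983 and rho = 0.988 (adjusted permutation p = 9e-05 for r and 0.00015 for rho; n = 10; raw p = 1e-05 for each, the smallest these resamples can give). Without Srgn+/+ 1 and Srgn-/- 2, the libraries farthest from the Cd68 median, r was 0.981. Cd68 and Csf1r had r = 0.965 and rho = 0.988 (adjusted permutation p = 9e-05 and 0.00015), with r = 0.962 once the same libraries were left out.

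Aif1 was in all 3 pairs of tested genes that did not pass, and the split by Aif1 was made with these correlations known. That all 28 pairs without Aif1 passed thus follows from the split. On deviations from the genotype means, where a difference between those means cannot contribute, the same 28 passed (exact permutation within genotype, adjusted over the 45 pairs). All 4 pairs that passed only before this step included Aif1. The 2 C1q chains measured, C1qb and C1qc, were among the less similar pairs, with r = 0.782 and rho = 0.745 (adjusted permutation p = 0.0128 and 0.0262), although their genes are neighbours. Without Srgn+/+ 1 and 5, r was 0.65 over 8 libraries and did not pass (adjusted permutation p = 0.107), while on deviations from the genotype means r was 0.821 (adjusted exact permutation p = 0.0145). C1qc followed Cd14 more closely, with r = 0.938 and rho = 0.830 (adjusted permutation p = 0.000825 and 0.0122), and r = 0.931 without Srgn+/+ 5 and Srgn-/- 3. In all, 5 of the 33 pairs did not pass over the 8 libraries left without the 2 farthest from the median, though r stayed positive in each. C1qb then had r = 0.75 with Lyz2 (0.837 over all 10) and 0.584 with Cd14 (0.735 over all 10), beside its value with C1qc. Aif1 had r = 0.518 with Cd68 (0.69 over all 10), and with Itgam its r was higher than over all libraries, at 0.784 (0.709 over all 10).

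Aif1 stood apart from the other 8 genes, with r from 0.559 to 0.756 and a median of 0.685 against 0.912 for the pairs without it. Its correlation with Csf1r was 0.559 (rho = 0.624; adjusted permutation p = 0.0937 and 0.0757) and 0.60 without Srgn+/+ 5 and 1. Of its 8 pairs, 5 passed over all libraries and 1 on deviations from the genotype means. The libraries behind this are visible in its values: Srgn+/+ 5 was the highest library for the other 8 genes and only the fifth for Aif1, and Srgn-/- 4 was at or above the mean for most of the others and among the 4 lowest for Aif1.

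**Figure D4:**
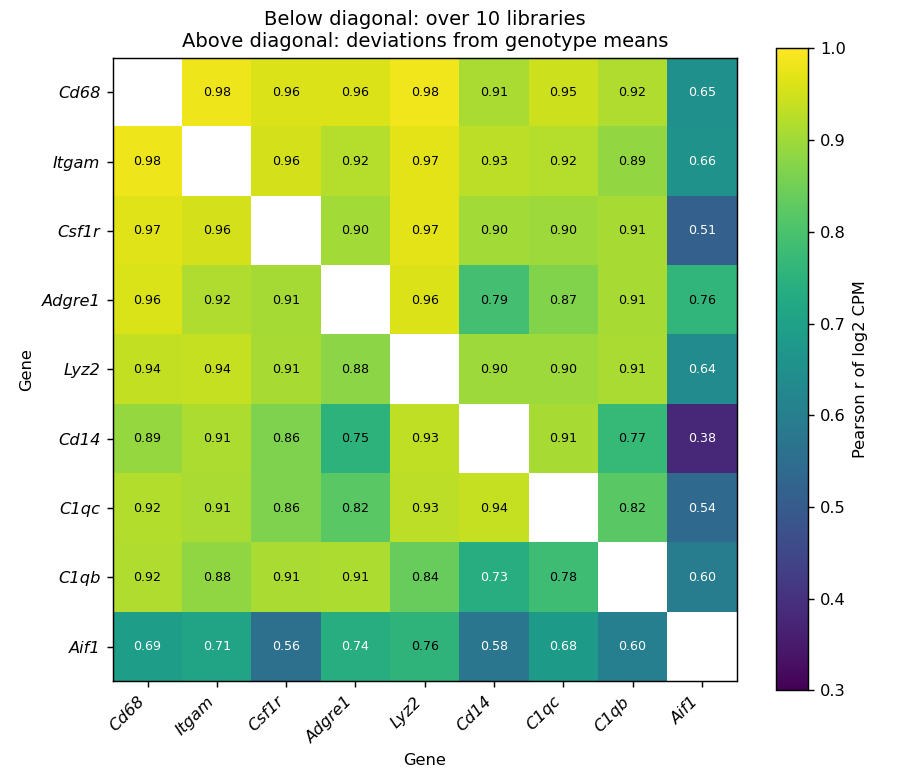
Pearson r of log2 CPM for each pair of tested genes, over the 10 libraries below the diagonal and on deviations from the genotype means above it (colour scale 0.3 to 1). Aif1 forms the dark row and column, with values of 0.38 to 0.76, while the pairs without it lie at 0.73 or above.

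Ratios of 1 gene to another within a library do not depend on how libraries are scaled. Over the 36 ratios of tested genes, 4 had an unadjusted exact permutation p under 0.05 and 0 passed when adjusted over the 36 (smallest adjusted p = 0.190). The ratio of Lyz2 to Csf1r was the only 1 of the 36 whose genotypes did not overlap, and the share over ratios of other genes was not computed. Lyz2 over Csf1r was 8.44, 8.66, 7.76, 8.20 and 8.99 in Srgn-/- 1 to 5, against 9.90, 12.2, 11.4, 12.2 and 10.5 in Srgn+/+ 1 to 5. Its log2 difference was -0.41 and did not pass (exact permutation p = 0.00794, the smallest that 5 against 5 can give, adjusted p = 0.190). Cd14 relative to Csf1r was 0.309 to 0.461 in Srgn-/- and 0.425 to 0.618 in Srgn+/+ (exact permutation p = 0.0159, adjusted p = 0.190). The other ratios with an unadjusted exact permutation p under 0.05 were Csf1r to C1qc (p = 0.0159) and Lyz2 to Itgam (p = 0.0317). This ratio of Lyz2 to Csf1r was singled out after its values were seen.

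**Figure D5:**
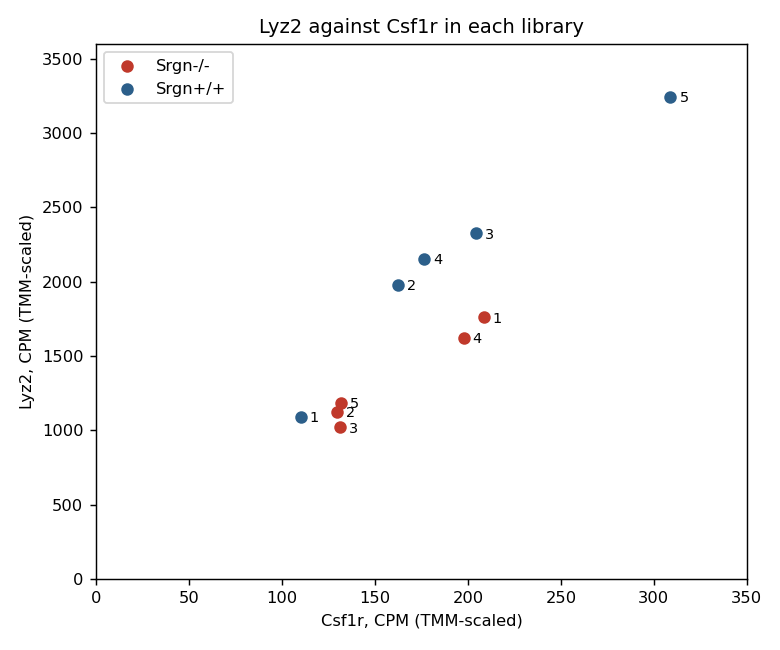
Lyz2 against Csf1r in each library (both CPM, TMM-scaled, axes from 0), with Srgn-/- mice in red and Srgn+/+ mice in blue, numbered by mouse. Every Srgn-/- library has a lower Lyz2 to Csf1r ratio (7.76 to 8.99) than every Srgn+/+ library (9.90 to 12.2). This ratio was singled out among 36 after its values were seen and did not pass (exact permutation test, adjusted p = 0.190).

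Genes that act with these 10 were read from the same fit, and 0 of the 161 tested genes on 18 lists passed (smallest edgeR adjusted p = 0.191). For the counts on these lists, 50.3% of all genes had lower values in Srgn-/-. At an unadjusted edgeR p under 0.05, 6.06% of all genes were lower and 6.77% higher. Of 25 other mononuclear phagocyte genes tested, 24 had lower values in Srgn-/- and 1 had an unadjusted p under 0.05, with a median log2 fold change of -0.50. The gene with the smallest p was Ncf4, a subunit of the phagocyte oxidase, at 16.9 ± 7.0 CPM in Srgn-/- and 28.7 ± 8.12 CPM in Srgn+/+ (edgeR adjusted p = 0.353). Ptprc, the CD45 phosphatase of all leukocytes, had 55.1 ± 20.2 CPM in Srgn-/- and 83.0 ± 25.2 CPM in Srgn+/+, and Cybb, the oxidase's catalytic subunit, had 31.0 ± 8.77 CPM in Srgn-/- and 46.8 ± 18.3 CPM in Srgn+/+. Their summed level was 1243 to 3384 CPM in Srgn-/- and 1059 to 5787 CPM in Srgn+/+, lowest in Srgn+/+ 1 and highest in Srgn+/+ 5.

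Ligands of the CSF1 receptor differed between genotypes by less than their error. Csf1 had 103 ± 16.6 CPM in Srgn-/- and 105 ± 21.2 CPM in Srgn+/+ (log2 -0.04, 95% interval -0.35 to 0.27), and Il34 had 41.8 ± 10.1 CPM in Srgn-/- and 37.7 ± 5.48 CPM in Srgn+/+ (log2 0.15, 95% interval -0.21 to 0.51). Both were named for their role, outside the rule for naming genes. Within that list of ligands and transcription factors, 10 of 12 had lower values and 0 had an unadjusted p under 0.05, with a median of -0.15. Among its genes, Nr1h3, the oxysterol receptor LXR alpha, had 187 ± 21.7 CPM in Srgn-/- and 211 ± 26.9 CPM in Srgn+/+, and Fli1, a transcription factor of blood and endothelial cells, had 54.4 ± 6.50 CPM in Srgn-/- and 60.3 ± 7.15 CPM in Srgn+/+.

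In the endotoxin receptor pathway, 8 of 11 tested genes had lower values, with a median of -0.23. Ticam1, the adaptor that carries TLR signals towards interferon genes, had 15.6 ± 1.46 CPM in Srgn-/- and 20.9 ± 1.87 CPM in Srgn+/+ and did not overlap between genotypes (log2 -0.42, SE 0.111; edgeR adjusted p = 0.201). Tlr4, the receptor Cd14 serves, had 39.7 ± 3.19 CPM in Srgn-/- and 46.7 ± 8.47 CPM in Srgn+/+, and the adaptor Tirap 19.0 ± 2.46 CPM in Srgn-/- and 21.1 ± 1.45 CPM in Srgn+/+.

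Among the partners, inhibitor and receptors of C1, 9 of the 12 listed were tested, 8 had lower values and 2 of them had an unadjusted p under 0.05, with a median of -0.22. C4b, the complement protein cleaved by the activated C1 complex, had 729 ± 163 CPM in Srgn-/- and 1038 ± 144 CPM in Srgn+/+ (log2 -0.51, SE 0.160; edgeR adjusted p = 0.247). Lrp1, an endocytic receptor that takes part in C1q-dependent uptake, had 865 ± 199 CPM in Srgn-/- and 1202 ± 241 CPM in Srgn+/+ (log2 -0.47; edgeR adjusted p = 0.309). Serping1, the C1 inhibitor, had the opposite sign, at 423 ± 32.2 CPM in Srgn-/- and 369.6 ± 67.3 CPM in Srgn+/+ (log2 0.19; edgeR adjusted p = 0.534).

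Of the integrin genes around CD11b, 9 of 10 had lower values (median -0.28), and 2 had an unadjusted p under 0.05. These were the ligand Icam1, at 27.0 ± 4.01 CPM in Srgn-/- and 34.8 ± 6.68 CPM in Srgn+/+, and the integrin activator Tln1, at 182 ± 17.2 CPM in Srgn-/- and 214 ± 25.9 CPM in Srgn+/+. Itgal, the CD11a chain shared with lymphocytes, had 3.15 ± 1.57 CPM in Srgn-/- and 5.39 ± 3.01 CPM in Srgn+/+. In the list of relatives of lysozyme, F4/80, CD68 and IBA1, 3 of 6 had lower values, with a median of 0.05. Aif1l, the paralog of Aif1, had the opposite sign to it, at 16.8 ± 4.62 CPM in Srgn-/- and 9.25 ± 3.34 CPM in Srgn+/+ (log2 0.85, SE 0.264; edgeR adjusted p = 0.247), and Lamp2, a lysosomal relative of CD68, had 275 ± 23.1 CPM in Srgn-/- and 237 ± 37.9 CPM in Srgn+/+.

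Markers of particular macrophage states did not all share the pattern. Of the lipid-associated macrophage markers, 10 of 11 had lower values (median -0.58), with Acp5 the exception at 409.7 ± 52.9 CPM in Srgn-/- and 343 ± 7.08 CPM in Srgn+/+. Cd9 had 156 ± 12.8 CPM in Srgn-/- and 212 ± 81.1 CPM in Srgn+/+, and Slamf9 had 27.6 ± 11.3 CPM in Srgn-/- and 41.3 ± 12.02 CPM in Srgn+/+. Of the resident macrophage markers, 6 of 9 had lower values, with a median of -0.09. Retnla, a secreted protein of alternatively activated macrophages, had 1554 ± 314 CPM in Srgn-/- and 986 ± 231 CPM in Srgn+/+ (log2 0.66, SE 0.187; edgeR adjusted p = 0.225). Lyve1 had 109 ± 29.3 CPM in Srgn-/- and 144 ± 48.5 CPM in Srgn+/+, and Clec10a had 108 ± 48.1 CPM in Srgn-/- and 146 ± 39.3 CPM in Srgn+/+.

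Monocytes and neutrophils share Lyz2, Cd14 and Itgam with macrophages. Monocyte markers had lower values for 6 of 7 tested genes (median -0.36) and summed to 132 to 269 CPM in Srgn-/- and 154 to 286 CPM in Srgn+/+. Among them, F10 had 9.98 ± 3.88 CPM in Srgn-/- and 17.9 ± 8.36 CPM in Srgn+/+, and Treml4 had 0.942 ± 0.256 CPM in Srgn-/- and 2.13 ± 1.26 CPM in Srgn+/+. Of 11 neutrophil markers, 5 were tested, 3 of them lower (median -0.46), and Ngp had 0 reads in every library; the list summed to 24.2 to 70.9 CPM in Srgn-/- and 13.5 to 79.1 CPM in Srgn+/+. S100a9 had 1.28 ± 0.530 CPM in Srgn-/- and 3.26 ± 2.37 CPM in Srgn+/+, Mmp9 had 3.19 ± 0.891 CPM in Srgn-/- and 8.95 ± 11.7 CPM in Srgn+/+, and Csf3r had 4.61 ± 1.75 CPM in Srgn-/- and 3.79 ± 1.495 CPM in Srgn+/+. The part of these cells in the values of Lyz2, Cd14 and Itgam was not tested.

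Markers of other cell types were summed in the same libraries. All 8 T cell markers had lower values (median -1.002), with sums of 16.7 to 23.5 CPM in Srgn-/- and 26.9 to 68.0 CPM in Srgn+/+. Of the 8, 6 were lower at an unadjusted p under 0.05 in edgeR, as were 6.06% of all genes, and 0 were called. Markers of the same cell type are not taken as separate observations. All 6 tested B cell markers had lower values too (median -0.77), with sums of 8.23 to 21.7 CPM in Srgn-/- and 17.8 to 32.5 CPM in Srgn+/+. Mast cell markers were lower for 4 of 6 (median -0.20; sums of 52.4 to 88.7 CPM in Srgn-/- and 68.3 to 119 CPM in Srgn+/+). Dendritic cell markers were lower for 4 of 8 (median 0.01; sums of 43.8 to 51.4 CPM in Srgn-/- and 42.2 to 54.7 CPM in Srgn+/+). Endothelial markers were higher for all 8 (median 0.36; sums of 721 to 1019 CPM in Srgn-/- and 679 to 903 CPM in Srgn+/+), mesothelial markers lower for 5 of 6 (median -0.10; sums of 215 to 457 CPM in Srgn-/- and 262 to 525 CPM in Srgn+/+), and adipocyte markers lower for 6 of 10 (median -0.03).

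Genes whose levels over the 10 libraries were most like those of C1q were sought among genes with at least 5 CPM, by Pearson r of log2 CPM with the mean of the C1q chains. With the mean of C1qb and C1qc, a choice made after the reads of C1qa were seen, the 6 most alike were Il3ra (r = 0.992), Cd37 (0.982), Clec12a (0.981), Tyrobp (0.981), Cyba (0.980) and Cd72 (0.979). Cd68 (r = 0.972, rank 19 of 12719) ranked highest of the macrophage genes and Aif1 lowest (r = 0.674, rank 1884). With C1qa, which had 0 to 4 reads a library, included in the mean, as the rule for naming genes has it, the 6 were Ms4a6b (r = 0.98), Cd22 (0.975), Hk3 (0.972), Slamf7 (0.969), P2rx7 (0.968) and Inpp5d (0.968). The lists share 0 genes, so which genes are named turns on those few C1qa reads.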

How the data were processed

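Total RNA of epididymal fat was amplified with the Ion AmpliSeq mouse transcriptome kit and read on an Ion S5 XL, per the labels' protocols; the build was mm9, per the submitters' processing notes, and neither aligner nor counter is stated in the labels read. The authors deposited raw read counts for 23930 amplicons and a table of RPM, reads scaled to library total,, which equals each count over its library total to within 0.00059.

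The counts were tested in R 4.3.3 with edgeR 4.0.16: filterByExpr (minimum count 10, minimum total 15; 12719 genes kept), TMM factors, robust quasi-likelihood test, Benjamini-Hochberg adjustment over all genes kept, threshold 0.05, no covariate. SE is the log2 fold change over the root of F. The p-values of the fits set the genotype difference against the spread between mice within each genotype. DESeq2 1.42.0, limma 3.58.1, other scalings and filters, and leaving out libraries were alternatives. Correlations used log2 CPM (prior count 2). Fits were tested on simulated data. Floors cover counting error alone, since reads were not collapsed to molecules by any stated identifier.

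The 10 genes, the lists and the alternatives were chosen with earlier results of these data known. Named are the 10 genes and Srgn, up to 3 genes per list with the smallest p, the 6 genes most like C1q, and genes a result turns on; some genes that this rule names are not reported here.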

Additional observations from a re-analysis of the deposited data

Results flagged for a closer look

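Aif1 in Srgn-/- 1, at 47.0 CPM, lay far above the other Srgn-/- libraries, which held 22.1 to 24.9 CPM; its gap was 0.887 of the range of its group, over the limit of 0.71 for 5 samples. It was the only one of the 20 groups looked at (10 genes in 2 genotypes) to pass that limit, and chance passes about 1 in 20.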

How the results depend on the processing

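Under all 20 alternatives the 9 tested genes had lower values in Srgn-/-, and 0 of the 9 passed. Their median log2 fold change was -0.77 to -0.26 when 1 library was left out, lowest without Srgn+/+ 1 and highest without Srgn+/+ 5, and -0.70 to -0.40 under the others. The smallest adjusted p of any of the 9 under any alternative was 0.0888, for Lyz2 and Aif1 in limma-voom with quality weights. Over all genes, 1 was lower and 0 were higher in the edgeR test. The DESeq2 Wald test called 108 lower and 118 higher, limma-voom 8 lower and 2 higher, and edgeR with no low-count filter 3 lower; the cause was not tested. Leaving out 1 library gave 1 to 2 lower and 0 to 0 higher. The median log2 fold change of all genes lay between -0.0092 and 0.053 under every alternative. Of the 45 pairs of genes, 35 correlated past the threshold, 28 to 39 when 1 library was left out, and 29 to 32 under the other alternatives. No paired analysis was possible because the mice are numbered only in the order of their records. Without the filter C1qa had an adjusted p of 0.571 in edgeR. With 7824764 to 10757779 reads a library, 3 reads stand for 0.287 to 0.398 CPM, and every C1qa value lies near or below that level; why C1qa had so few reads was not tested.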

Other observations

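The C1qa amplicon had 13 reads over 10 libraries and the adjoining C1qc amplicon 1543, while C1qb had 38305. Chains of 1 protein were thus read at very different depths on this panel, and how well each amplicon works was not tested. The spread between mice also differed by gene and by scale. On the log2 scale the SD was larger in Srgn+/+ than in Srgn-/- for all 9 tested genes. Cd68 had an SD of log2 CPM of 0.822 in Srgn-/- and 1.14 in Srgn+/+, and a coefficient of variation of 56.6% in Srgn-/- and 66.9% in Srgn+/+. For Cd14 the SDs of log2 CPM were 0.503 in Srgn-/- and 0.504 in Srgn+/+. For Aif1 the SD of log2 CPM was lower in Srgn-/- (0.455 in Srgn-/- and 0.563 in Srgn+/+), but the coefficient of variation was higher there (38.0% in Srgn-/- and 33.5% in Srgn+/+). No difference in spread was tested.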
